A study of Mus musculus with 18 samples.

Results

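The 10 genes described here are immediate early genes of neurons, namely Fos, Fosb, Junb, Egr1, Egr2, Arc, Npas4, Nr4a1, Ier2 and Dusp1, measured in polyadenylated RNA of mouse brain cortex. They were taken by gene symbol from the deposited tables, and all 10 were among the 55385 genes listed and among the 18717 genes tested. The libraries fall into 3 genotypes with 6 libraries each, 3 from females and 3 from males. Dp16_2xIFNRs mice carry the chromosome 16 duplication of Dp16 with the interferon receptor genes at normal copy number, Dp16 mice carry the whole duplication, which models trisomy 21, and WT mice are C57BL/6J. The duplication is carried in all cells of the animal, no treatment is labelled, and age ran from 17.1 to 18 weeks. How and at what time of day the brains were collected is not given in the sources used here. None of the 10 genes lies on chromosome 16, so none is itself duplicated.

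On GRCm38, in the annotation of GENCODE M21, all are protein-coding genes. Of the transcription factor genes, Fos lies at chr12:85473890-85477273, Fosb at chr7:19302696-19310051, Junb at chr8:84974484-84978718, Egr1 at chr18:34859823-34864984 and Egr2 at chr10:67535475-67542188. Npas4 lies at chr19:4984355-4990316 and Nr4a1 at chr15:101254269-101274795. Arc lies at chr15:74669083-74672570, Ier2 at chr8:84661331-84662852 and Dusp1 at chr17:26505590-26562128.

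Immediate early genes are transcribed within minutes of synaptic activity from factors already present in the cell, without new protein synthesis. Calcium entry and growth factor signalling reach their promoters through the cyclic AMP response element, which CREB binds, and through the CArG box, which serum response factor binds. Most of the products are transcription factors that set the next wave of genes, while Arc acts at the synapse, and in cortex the transcripts are widely used as a trace of recent neuronal activity. They are not restricted to neurons, since Fos, Junb, Egr1, Ier2, Dusp1 and Nr4a1 also respond to stress and growth factors in glia and vessels.

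Promoter sequences are shown for the letters of these known elements. The RefSeq promoter table (build GRCm38.p6) held entries for 7 of the 10 genes, with 11 windows in all, and the 250 bases before each start were searched on both strands. The core of the cyclic AMP response element, TGACG or CGTCA on the other strand, was present in at least 1 window of 7 of 7 genes, against 17.8% of all 32851 windows. The count is of genes with any such window and the share is of windows, so they are not like measures. Egr2 contributes several overlapping windows, and not all of its windows held the core. The windows of Fos, Junb and Nr4a1 and 1 of those of Egr2, all outside annotated exons, are shown whole, with these cores and the CArG box of Egr2 in capitals. Another Egr2 window outside exons, chr10:67537316-67537565, held a CArG box of other letters and no core, and is not shown.
Fos, chr12:85473640-85473889, plus strand: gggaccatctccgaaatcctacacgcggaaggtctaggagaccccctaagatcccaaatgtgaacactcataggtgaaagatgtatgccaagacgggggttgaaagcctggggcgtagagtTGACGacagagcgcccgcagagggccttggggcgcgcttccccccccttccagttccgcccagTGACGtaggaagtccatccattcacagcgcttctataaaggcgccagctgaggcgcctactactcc
Junb, chr8:84978749-84978998, minus strand: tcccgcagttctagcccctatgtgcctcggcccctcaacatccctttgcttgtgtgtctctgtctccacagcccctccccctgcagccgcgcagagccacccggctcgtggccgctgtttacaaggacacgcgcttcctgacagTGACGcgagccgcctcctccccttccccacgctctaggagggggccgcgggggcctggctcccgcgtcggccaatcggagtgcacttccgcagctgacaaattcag
Egr2, chr10:67537619-67537868, plus strand: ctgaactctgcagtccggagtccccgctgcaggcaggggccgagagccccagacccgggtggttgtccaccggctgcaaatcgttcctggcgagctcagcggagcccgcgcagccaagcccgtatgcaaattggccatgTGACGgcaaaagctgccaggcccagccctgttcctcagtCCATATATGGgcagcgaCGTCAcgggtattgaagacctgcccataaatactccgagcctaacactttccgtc
Nr4a1, chr15:101266596-101266845, plus strand: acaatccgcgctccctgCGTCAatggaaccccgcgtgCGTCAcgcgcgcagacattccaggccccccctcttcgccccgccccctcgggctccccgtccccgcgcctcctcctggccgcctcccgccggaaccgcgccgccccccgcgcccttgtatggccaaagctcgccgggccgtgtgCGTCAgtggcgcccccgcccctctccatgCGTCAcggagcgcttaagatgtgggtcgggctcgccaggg
Within the 250 bases searched before each start, Egr2 was the only gene of the 7 with a CArG box. Bases farther from the start were not searched, so a CArG box there would be missed. The CArG box occurs in 1.47% of all windows, and the plain TATAAA of Fos in 12.4% of them. The windows of Egr2 and Nr4a1 shown lie inside the annotated genes. For Fosb and Dusp1, whose windows reach into annotated exons, and Npas4, whose window is exonic in 250 of 250 bases, 30 bases around the core are shown with the core in capitals.
Fosb, chr7:19310086-19310115, minus strand: gagttgcgggTGACGcaagcgcgggggcgg
Npas4, chr19:4990127-4990156, minus strand: gttcgaCGTCAcgggaTGACGtcggaagtc
Dusp1, chr17:26508593-26508622, minus strand: gggcgggTGACGTCAccgcccggtcacgtg
Npas4 carries a pair of cores in opposite orientation. In the bases searched, Dusp1 was the only gene with the full palindrome TGACGTCA. That palindrome contains the core on each strand and occurs in 1.55% of all windows. A match of letters is a description of the window and does not show that a factor was bound.

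The 6 libraries of Dp16_2xIFNRs held 47912340 to 61150849 counts, those of Dp16 46346019 to 67281449 and those of WT 47554526 to 52006799. Ifnar1, a receptor gene of the duplicated segment, was at 44.1 to 47.2 CPM (counts scaled to a common library total) in Dp16_2xIFNRs, 61.9 to 65.6 CPM in Dp16 and 41.3 to 50.1 CPM in WT, so every Dp16 library was above every other library. All 9 genes listed as excitatory neuron markers were present, with a summed level of 10900 to 13400 CPM over the libraries. That list includes Rbfox3 and Snap25, which are general neuron genes, so its sum is not of excitatory neurons alone. Markers of neighbouring tissue varied more, with a choroid plexus sum of 395 CPM in Dp16 replicate 3 and a striatum sum of 1320 CPM in Dp16_2xIFNRs replicate 5. In bulk tissue, fewer cells expressing a gene and less RNA per cell cannot be told apart. The labels give the libraries as separate samples of a group. The sample identifiers also carry a number, and 11 libraries share theirs with a library of another genotype, over 5 such numbers, but what the number marks is not given in the sources used here. P-values measure the spread between these samples.

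All 10 genes were well above the detection limit in every library. The lowest count of any of them was 226, for Egr2 in Dp16 replicate 3. On the scale of deposited RPKM, a read count scaled by gene length and library total, which allows levels of different genes to be set side by side, Arc (128 RPKM) and Egr1 (119 RPKM) were the most abundant on average over 18 libraries. Arc was above Egr1 in 9 of 18 libraries, so their order is not set. Junb (57.2 RPKM) and Nr4a1 (48.9 RPKM) followed, with Egr1 above Junb in 18 of 18 libraries and Junb above Nr4a1 in 16 of 18. Fos (23.6 RPKM) and Dusp1 (20.3 RPKM) came next, and Nr4a1 was above Fos in 18 of 18 libraries. Ier2 (9.46 RPKM), Fosb (8.85 RPKM), Npas4 (7.25 RPKM) and Egr2 (5.25 RPKM) were the least abundant. Within that lower group, Ier2 exceeded Fosb in 8 of 18 libraries and Npas4 exceeded Egr2 in 10 of 18, so that order is not set either. For every neighbouring pair the ranges over libraries overlapped.

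No immediate early gene passed the test for a difference between genotypes. With edgeR's quasi-likelihood test, 0 of 10 were called at an adjusted p below 0.05 in Dp16_2xIFNRs vs WT, where 1.05% of all tested genes were called. The count was also 0 of 10 in Dp16 vs WT (0.748% of all tested genes) and 0 of 10 in Dp16_2xIFNRs vs Dp16 (0.0214%). At an unadjusted p below 0.05, which 11.5%, 8.84% and 2.19% of all tested genes had in these contrasts, it was 0 of 10 in each of the 3. At an adjusted p below 0.05, DESeq2 and limma called 0 of 10 as well. The groups overlapped for 10 of 10 genes in each contrast, and of all tested genes 1.34% in Dp16_2xIFNRs vs WT, 0.919% in Dp16 vs WT and 0.107% in Dp16_2xIFNRs vs Dp16 had groups that did not overlap, so overlap is the common case. These contrasts share libraries, so their values are not independent of each other.

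**Figure D1:**
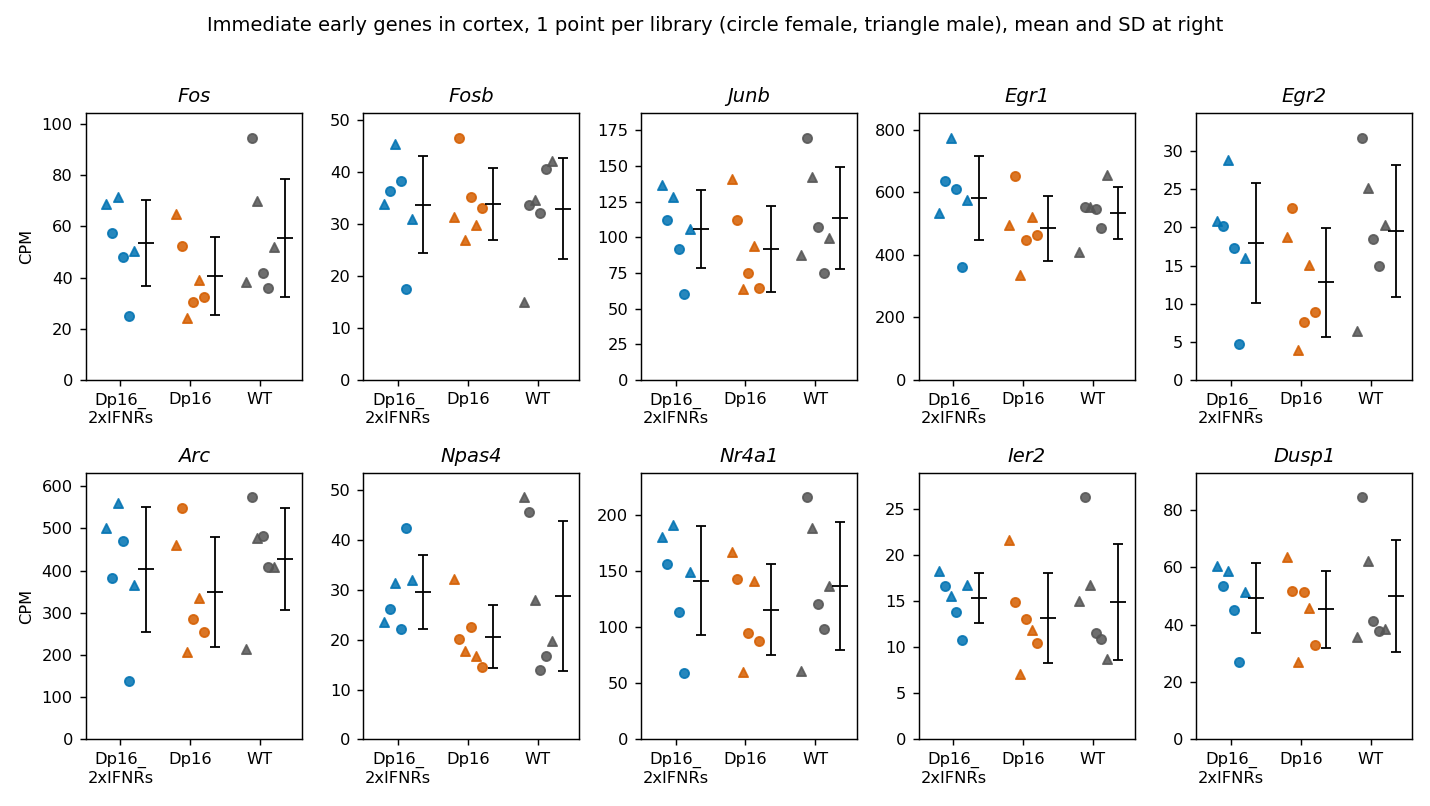
Level of each gene in CPM (vertical axes, from 0) in 18 libraries, 1 point per library, with Dp16_2xIFNRs left, Dp16 in the middle and WT right, circles for females and triangles for males. Bars are mean and SD over 6 libraries, and the groups overlap for every gene, with Fos between 24.2 and 94.8 CPM.

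Among the AP-1 genes, Fos encodes the Fos protein, which pairs with a Jun protein to bind DNA. Its lowest, median and highest levels were 24.9, 54 and 71.7 CPM in Dp16_2xIFNRs, 24.2, 35.6 and 64.8 CPM in Dp16, and 36.1, 46.8 and 94.8 CPM in WT. The libraries of a genotype differed by 2.62-fold or more, and the highest value belonged to WT replicate 2. Fos averaged 40.5 ± 15.3 CPM in Dp16 and 55.4 ± 22.9 CPM in WT (SD, n = 6 each), a log2 fold change of -0.46 (SE 0.309, adjusted p = 0.75). The 95% interval of that fold change, 0.46 to 1.15 on the linear scale, runs from a clearly lower to a slightly higher level. In Dp16_2xIFNRs, at 53.6 ± 17 CPM, the log2 fold change of Fos against WT was -0.07 (adjusted p = 0.981).

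Junb encodes a Jun partner of Fos. Its lowest, median and highest levels were 60, 109 and 137 CPM in Dp16_2xIFNRs, 63.9, 84.6 and 141 CPM in Dp16, and 74.9, 103 and 170 CPM in WT. The 3 ranges overlap over most of their length, and WT replicate 2 was the highest. The log2 fold change was -0.12 (SE 0.247) in Dp16_2xIFNRs vs WT and -0.32 (SE 0.247) in Dp16 vs WT, with adjusted p-values of 0.931 and 0.798. Junb overlaps Prdx2 on the other strand, and whether counting used the strand is not given in the sources used here. Fosb, whose product also pairs with Jun proteins and whose stable splice form accumulates with repeated activity, averaged 33.7 ± 9.3 CPM in Dp16_2xIFNRs, 33.8 ± 6.86 CPM in Dp16 and 32.9 ± 9.69 CPM in WT. These means lie within 1 CPM of each other, and gene-level values do not separate the splice forms. Its low values were 17.5 CPM in Dp16_2xIFNRs replicate 5 and 14.9 CPM in WT replicate 1.

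The zinc finger genes Egr1 and Egr2 encode transcription factors of one family but stood at opposite ends of the variability. Egr1 had its lowest, median and highest levels at 362, 593 and 775 CPM in Dp16_2xIFNRs, 335, 479 and 653 CPM in Dp16, and 409, 549 and 654 CPM in WT. It differed least among libraries of all 10 genes, 2.31-fold from the lowest to the highest. Its log2 fold change was 0.12 (SE 0.171, adjusted p = 0.887) in Dp16_2xIFNRs vs WT, -0.14 (SE 0.171, adjusted p = 0.913) in Dp16 vs WT and 0.26 (SE 0.172, adjusted p = 1) in Dp16_2xIFNRs vs Dp16. Egr2 had its lowest, median and highest levels at 4.65, 18.8 and 28.8 CPM in Dp16_2xIFNRs, 3.95, 12 and 22.5 CPM in Dp16, and 6.38, 19.4 and 31.8 CPM in WT. The lowest libraries of the 3 genotypes were Dp16_2xIFNRs replicate 5, Dp16 replicate 3 and WT replicate 1, and the groups overlap. The range over 18 libraries was 8.04-fold. Egr2 had the most negative log2 fold change in Dp16 vs WT, -0.61, with an SE of 0.468 and a 95% interval of -1.61 to 0.39 (adjusted p = 0.796).

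Npas4 encodes a transcription factor that is induced by calcium entry in neurons and shapes inhibitory synapses. Its lowest, median and highest levels were 22.1, 28.7 and 42.4 CPM in Dp16_2xIFNRs, 14.6, 18.9 and 32.1 CPM in Dp16, and 14, 23.8 and 48.6 CPM in WT. The WT libraries alone spanned the range of both other groups, with 48.6 CPM in replicate 1, 45.7 CPM in replicate 2 and 14 to 27.9 CPM in the others. Its log2 fold change was 0.05 (SE 0.306, adjusted p = 0.989) in Dp16_2xIFNRs vs WT, -0.48 (SE 0.308, adjusted p = 0.731) in Dp16 vs WT and 0.53 (SE 0.308, adjusted p = 1) in Dp16_2xIFNRs vs Dp16. The last of these was the largest of the 10 genes in that contrast.

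Nr4a1 encodes an orphan nuclear receptor that acts without a bound hormone. Its lowest, median and highest levels were 59.1, 153 and 191 CPM in Dp16_2xIFNRs, 60.1, 118 and 167 CPM in Dp16, and 61.4, 129 and 216 CPM in WT. The lowest library of each genotype stood at nearly the same level. The log2 fold change was 0.02 (SE 0.336) in Dp16_2xIFNRs vs WT and -0.26 (SE 0.335) in Dp16 vs WT, with adjusted p-values of 0.997 and 0.917.

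Arc, the effector of the set, encodes a protein at dendrites that takes part in the removal of AMPA receptors from synapses. Its lowest, median and highest levels were 139, 426 and 560 CPM in Dp16_2xIFNRs, 208, 311 and 547 CPM in Dp16, and 213, 444 and 574 CPM in WT. The highest libraries of the 3 genotypes were alike, while the lowest was Dp16_2xIFNRs replicate 5. Arc averaged 403 ± 149 CPM in Dp16_2xIFNRs, 348 ± 130 CPM in Dp16 and 428 ± 121 CPM in WT (SD, n = 6 each). The log2 fold change was -0.09 (SE 0.328, adjusted p = 0.974) in Dp16_2xIFNRs vs WT and -0.30 (SE 0.325, adjusted p = 0.892) in Dp16 vs WT. Ier2, a nuclear protein of the rapid response, averaged 15.3 ± 2.69 CPM in Dp16_2xIFNRs, 13.1 ± 4.89 CPM in Dp16 and 14.9 ± 6.31 CPM in WT. Dusp1, a phosphatase that switches off MAP kinases, averaged 49.3 ± 12.3 CPM in Dp16_2xIFNRs, 45.4 ± 13.4 CPM in Dp16 and 49.9 ± 19.5 CPM in WT. For both, the means differed by less than the SD of any group. Dusp1 overlaps other annotated genes on both strands, so its count may be affected by them. How reads in the overlaps were counted is not given in the sources used here.

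**Figure D2:**
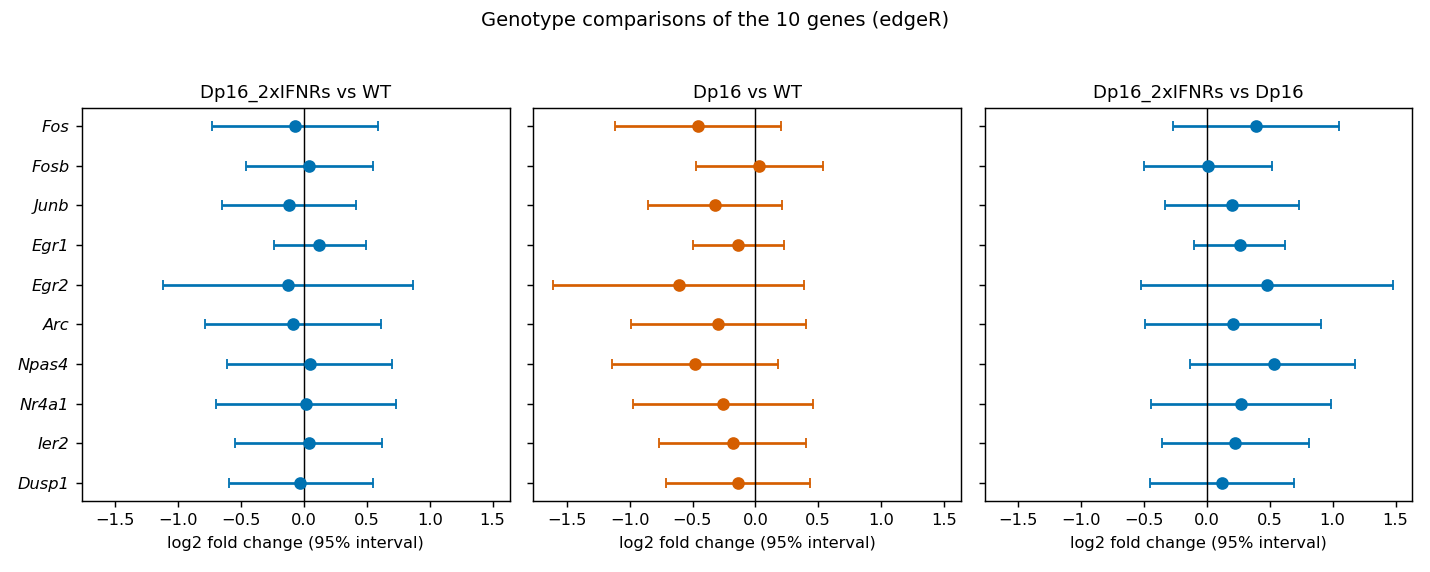
Log2 fold change (horizontal axis) of each gene with its 95% interval from edgeR, for Dp16_2xIFNRs vs WT, Dp16 vs WT and Dp16_2xIFNRs vs Dp16 from left to right. Every interval includes 0, and the widest are those of Egr2.

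As a set, the fold changes centred on 0 in Dp16_2xIFNRs vs WT, with 5 of 10 above 0, a median of -0.00 and a range of -0.13 to 0.12. In Dp16 vs WT, 9 of 10 were below 0, with a median of -0.28 and a range of -0.61 to 0.03, where the median over all tested genes was -0.00 and 49.3% were above 0. In Dp16_2xIFNRs vs Dp16, 10 of 10 were above 0, with a median of 0.24 and a range of 0.01 to 0.53, where 50.9% of all genes were above 0. These signs were the same with RLE size factors, but limma on RPKM put Fosb below 0 in the last contrast. There 9 of 10 were also above 0 without sex in the model and with the replicate or identifier number as a block. In Dp16_2xIFNRs vs WT, 3 of 10 were above 0 with age added or limma-voom weights, 7 of 10 with the identifier block and 6 of 10 on RPKM. Dp16 vs WT kept 9 of 10 below 0 in all of these. The members vary together, as described next, so a shared sign counts for less than 10 separate observations. The signs and sizes depended on single libraries. Without WT replicate 2, 10 of 10 were above 0 in Dp16_2xIFNRs vs WT with a median of 0.17, and 7 of 10 were below 0 in Dp16 vs WT with a median of -0.12. In Dp16 vs WT the values without that library were -0.18 for Fos, -0.12 for Junb, -0.39 for Egr2, -0.23 for Npas4, -0.03 for Nr4a1, -0.19 for Arc, 0.08 for Ier2 and 0.10 for Dusp1. Without Dp16 replicate 3 the median in Dp16 vs WT was -0.15, with Egr1 at -0.04 and Arc at -0.18, and in Dp16_2xIFNRs vs Dp16 it was 0.10 with 8 of 10 above 0. Without Dp16_2xIFNRs replicate 5 the medians were 0.12 in Dp16_2xIFNRs vs WT and 0.37 in Dp16_2xIFNRs vs Dp16, and without WT replicate 1 the first of these was -0.14.

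Sex made no difference that passed the test. In females vs males 0 of 10 genes were called, where 0.0641% of all tested genes were, and 0 of 10 had an unadjusted p below 0.05 by edgeR (6.64% of all tested genes), with 0 calls by DESeq2 and limma too. The log2 fold changes ran from -0.22 to 0.11 with a median of -0.07. Fos averaged 46.5 ± 21.1 CPM in females and 53.2 ± 16.9 CPM in males (SD, n = 9 each). In the test of whether the genotype difference depends on sex, 0 of 10 genes were called for Dp16_2xIFNRs vs WT and 0 of 10 for Dp16 vs WT by edgeR, with a background of 0% and 0 members at an unadjusted p below 0.05 in both (5.87% and 3.08% of all tested genes). For this test each sex and genotype holds 3 libraries, and the SE for Arc was 0.639 on the log2 scale.

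The members did differ strongly between animals of the same genotype. The biological coefficient of variation, which is the spread between libraries beyond counting error, was 55% for Egr2, 39.5% for Nr4a1, 38.4% for Arc, 36.5% for Fos and 36.3% for Npas4. Across all tested genes the median was 11.1%. Egr2 lay at the 99.3rd percentile of tested genes, and the lowest member, Egr1 with 20.5%, at the 77.2nd. Among tested genes at or above the median level, Egr1 lay at the 97.4th percentile. Fosb (28.4%), Junb (29.3%), Dusp1 (31.7%) and Ier2 (32.6%) lay between. Genotype accounted for 0.79% of the variance of log2 CPM for Fosb and for 17.4% for Npas4, the ends of the range, against a median of 9.34% over all tested genes.

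The spread was arranged by library. In WT replicate 2 all 10 genes were above their own mean over 18 libraries, by 0.72 on the log2 scale on average but by only 0.05 for Fosb and 0.08 for Egr1, and all 10 were above it in WT replicate 3 (0.40), Dp16_2xIFNRs replicate 3 (0.52) and Dp16_2xIFNRs replicate 2 (0.24) as well. In Dp16 replicate 3 all 10 genes were below their mean, by -0.84 on average. In Dp16_2xIFNRs replicate 5 the average was -0.75 with 9 of 10 genes below, in Dp16 replicate 6 it was -0.46 with 9 of 10 below, and in WT replicate 1 it was -0.42 with 8 of 10 below. Each genotype thus held libraries below and libraries above the mean. The library of the lowest members in Dp16_2xIFNRs, replicate 5, also had the highest striatum sum of its group, 1320 CPM, and the lowest excitatory neuron sum, 11100 CPM. That in Dp16, replicate 3, had the highest striatum sum of its group, 908 CPM, and the highest choroid plexus sum, 395 CPM. The lowest excitatory neuron sum of Dp16, 10900 CPM, was in replicate 6. WT replicate 1, by contrast, had the lowest striatum sum of its group, 415 CPM, and the highest excitatory neuron sum, 13400 CPM. The part of neighbouring tissue in the low values was not tested beyond the correlations given further on.

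**Figure D3:**
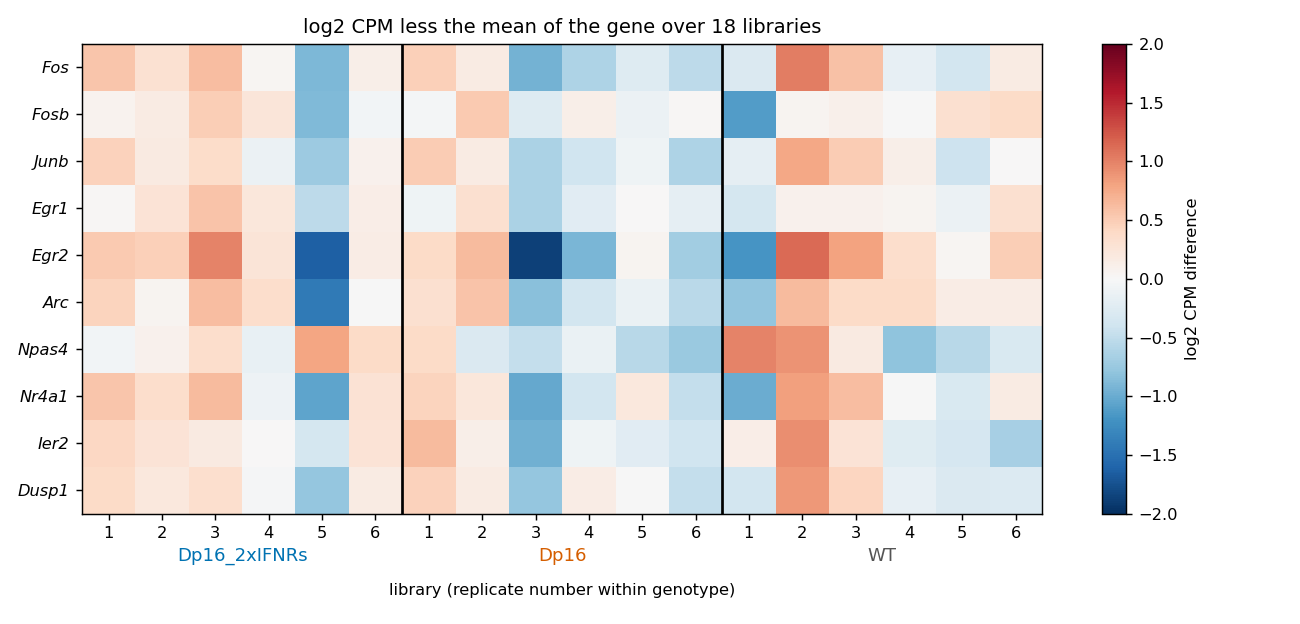
Log2 CPM of each gene (rows) less its mean over 18 libraries, by library (columns, replicate numbers 1 to 6), with Dp16_2xIFNRs left, Dp16 in the middle and WT right. Dp16_2xIFNRs replicate 5, Dp16 replicate 3 and WT replicate 1 are blue (low) for most genes, and Npas4 is red (high) in the first and last of these.

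With genotype and sex means removed, 8 of the 9 other members followed Fos from library to library (n = 18, two-sided permutation tests with 100000 resamples, Benjamini-Hochberg over 9 relations, smallest possible p 1e-05). The closest was Junb, with a Pearson r of 0.965 and a Spearman rho of 0.94 (permutation p = 1e-05 and adjusted p = 1.8e-05 for both). Nr4a1 (r = 0.929, rho = 0.938), Dusp1 (r = 0.928, rho = 0.864), Egr2 (r = 0.909, rho = 0.95) and Arc (r = 0.859, rho = 0.884) had the same permutation p. Ier2 (r = 0.817, rho = 0.769) and Egr1 (r = 0.732, rho = 0.703) were looser, with adjusted permutation p-values of 7.5e-05 and 0.000579 for r and of 0.00045 and 0.00198 for rho. Without the libraries farthest from the median of Fos, WT replicate 2 and Dp16_2xIFNRs replicate 5, r was 0.945 for Junb, 0.895 for Nr4a1, 0.874 for Dusp1, 0.901 for Egr2, 0.846 for Arc, 0.74 for Ier2 and 0.734 for Egr1. Fosb was the weakest of the 8, with r = 0.595 and rho = 0.556 (adjusted permutation p = 0.00918 and 0.0206) and r = 0.544 without those libraries. Its relation did not pass without Dp16_2xIFNRs replicate 5 (r = 0.412, adjusted permutation p = 0.101).

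Within single genotypes (n = 6 each, sex means not removed, exact permutation tests, adjusted over 27 relations), 26 of 27 values of r with Fos were above 0. Of the 27, 13 passed, with 5 in Dp16_2xIFNRs, 5 in Dp16 and 3 in WT. Junb and Nr4a1 passed in each genotype. For Junb r was 0.987 in Dp16_2xIFNRs, 0.961 in Dp16 and 0.953 in WT, and for Nr4a1 it was 0.986, 0.93 and 0.881 in the same order.

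**Figure D4:**
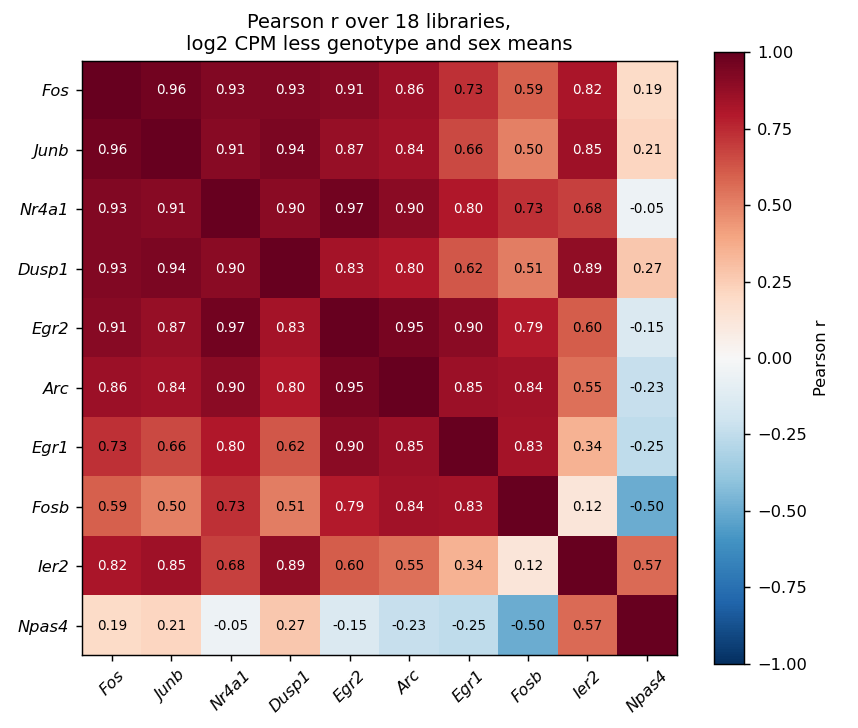
Pearson r between members over 18 libraries (colour and printed value), from log2 CPM less genotype and sex means. The block from Fos to Arc is dark red, with values of 0.8 or more, and the row of Npas4 runs from -0.497 with Fosb to 0.57 with Ier2.

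The relation of Npas4 with Fos did not pass the test. Its r with Fos was 0.194 and its rho 0.162 (permutation p = 0.439 and 0.522, adjusted p the same), and r was 0.192 without the libraries farthest from the Fos median. Leaving out 1 library moved this r from -0.125 (without WT replicate 2) to 0.474 (without Dp16_2xIFNRs replicate 5). In Dp16_2xIFNRs replicate 5 Npas4 was at 42.4 CPM, the highest of its group, where Arc was at 139 CPM and Egr2 at 4.65 CPM, the lowest of theirs. In WT replicate 1 Npas4 was at 48.6 CPM, the highest of all 18 libraries, where Arc was at 213 CPM and Fosb at 14.9 CPM, the lowest of WT. In WT replicate 2, by contrast, Npas4 was at 45.7 CPM where Fos, at 94.8 CPM, and Junb, at 170 CPM, were the highest of all 18 libraries and Fosb was at 33.6 CPM. Within genotypes r with Fos was -0.665 in Dp16_2xIFNRs, 0.65 in Dp16 and 0.463 in WT, and none passed (exact permutation p adjusted over 27 relations of 0.183, 0.183 and 0.359).

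Over all 45 pairs of members, r ran from 0.12 (Fosb with Ier2) to 0.967 in the 36 pairs without Npas4, with a median of 0.834. Of these, 34 of 36 passed on r after adjustment over 45 pairs. Fosb with Junb, Nr4a1 and Dusp1, and Egr1 with Dusp1, passed on r but not on rho (adjusted permutation p = 0.0886, 0.0611, 0.0726 and 0.0793). Without the 2 libraries farthest from the median of the gene named first, r for these was 0.174, 0.346, 0.161 and 0.297. Of the 9 pairs with Npas4, 2 passed on r. Npas4 with Ier2 had r = 0.57 (permutation p = 0.0138, adjusted p = 0.0194) and rho = 0.507 (permutation p = 0.0351, adjusted p = 0.0509). Without the 2 libraries farthest from the Npas4 median, r was 0.443. Npas4 with Fosb had r = -0.497 (permutation p = 0.0345, adjusted p = 0.0432) and rho = -0.263 (permutation p = 0.29, adjusted p = 0.343). Without the 2 libraries farthest from the Fosb median, r was -0.0526, so that relation rests on those libraries. A first principal component held 72.4% of the variance of the standardized members, with loadings of 0.272 to 0.363 for the other 9 and 0.00385 for Npas4. The second held 21%, with Npas4 (0.647) and Ier2 (0.45) at one end and Fosb (-0.421) at the other.

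**Figure D5:**
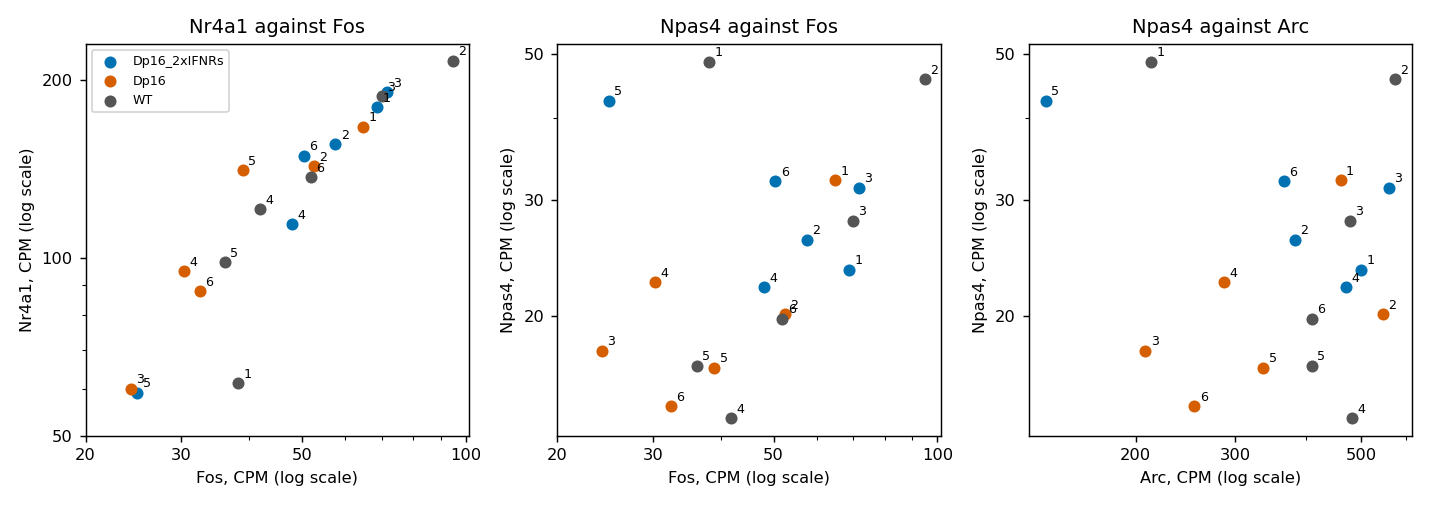
Nr4a1 against Fos, Npas4 against Fos and Npas4 against Arc (CPM on log axes) in 18 libraries, coloured by genotype and labelled by replicate number. Nr4a1 follows Fos along a line, with WT replicate 1 below it, while Dp16_2xIFNRs replicate 5 and WT replicate 1 combine high Npas4 with low Arc.

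Other rapid response genes had no calls either. Of all tested genes, 1.05% were called in Dp16_2xIFNRs vs WT, 0.748% in Dp16 vs WT and 0.0214% in Dp16_2xIFNRs vs Dp16. At such shares 0 calls is the common case for a list of this size. Of 30 other rapid response genes, 0 were called in Dp16_2xIFNRs vs WT (2 at an unadjusted p below 0.05 by edgeR) and 0 in Dp16 vs WT (1 at an unadjusted p below 0.05), with medians of 0.00 and -0.03 on the log2 scale. Over all tested genes 11.5% and 8.84% had such an unadjusted p, and 2.19% in Dp16_2xIFNRs vs Dp16. The values of largest size in the list against WT were those of Maff, a small Maf transcription factor, at 3.43 ± 1.91 CPM in Dp16 and 2.17 ± 1.1 CPM in WT (log2 fold change 0.65, adjusted p = 0.643), and of the growth inhibitor Btg2 at 17.6 ± 10.2 CPM in Dp16 and 25.1 ± 18.9 CPM in WT (-0.54, adjusted p = 0.826). Maff was at 0.42 without Dp16 replicate 4. In Dp16_2xIFNRs vs Dp16, where 1 gene of the list had an unadjusted p below 0.05 and 0 were called by edgeR, Maff was at 1.86 ± 0.694 CPM in Dp16_2xIFNRs and 3.43 ± 1.91 CPM in Dp16. That difference was -0.78 on the log2 scale (SE 0.351, adjusted p = 1 by edgeR) and ran from -1.03 to -0.57 with 1 library left out. The value of Btg2 was -0.00 without WT replicate 2. Zfp36, which speeds the decay of unstable transcripts, differed by 0.46 in Dp16_2xIFNRs vs WT (SE 0.255, adjusted p = 0.536) and by 0.49 in Dp16 vs WT (SE 0.254, adjusted p = 0.619), and the second value was 0.19 without Dp16 replicate 4.

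The 10 genes outside the set whose residual levels were most like the members' mean over 18 libraries were led by Trib1, a pseudokinase gene (r = 0.936), and Dusp6, a phosphatase of ERK kinases (r = 0.913). Otud1, a deubiquitinase (0.874), the zinc finger gene Egr4 (0.848), the transcription repressor Nfil3 (0.831) and Csrnp1 (0.828) followed. Kcmf1 (0.826), the insulin receptor substrate Irs1 (0.819), the secreted matrix protein gene Ccn1 (0.819) and the predicted gene Gm6444 (0.816) completed them. Of these, Trib1, Dusp6, Egr4, Csrnp1 and Ccn1 are in the list of other rapid response genes. These values of r chose the genes among all those tested and are a description. Leaving out any 1 library kept r at 0.913 or more for Trib1 and 0.884 or more for Dusp6, and the lowest for Gm6444 was 0.712, a gene at no more than 0.68 CPM. Dusp6 ranged from 45.5 to 92.1 CPM and Trib1 from 16.8 to 37.6 CPM over the libraries, while Kcmf1 kept between 54.2 and 60.1 CPM.

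Among 20 late response genes, which neurons turn on after the immediate early wave, 1 of 20 rose in Dp16_2xIFNRs vs WT and 2 of 20 in Dp16 vs WT, where 0.737% and 0.636% of all tested genes rose. None of the 20 fell, which 0.31% and 0.112% of all tested genes did. The list was chosen with earlier results of these data known, so these counts describe its genes and do not test the list. Cort, which encodes the neuropeptide cortistatin of inhibitory neurons, rose in both. It was at 10.4 ± 1.42 CPM in Dp16_2xIFNRs and 6.51 ± 1.17 CPM in WT (log2 fold change 0.68, SE 0.112, adjusted p = 0.00207), and at 11.2 ± 1.16 CPM in Dp16 against the same WT libraries (0.79, SE 0.112, adjusted p = 0.000306). Crh, the gene of corticotropin-releasing hormone, rose to 8.11 ± 0.769 CPM in Dp16, against 5.82 ± 1.15 CPM in WT (0.48, SE 0.109, adjusted p = 0.0386). For Crh the call was lost without any 1 of 12 of the 18 libraries, the highest adjusted p being 0.111. In Dp16_2xIFNRs Crh was at 7.4 ± 0.408 CPM (0.35, SE 0.109, adjusted p = 0.156). The medians of the late list were 0.10 and 0.02. DESeq2 and limma-voom made the same calls, Cort in both contrasts and Crh in Dp16 vs WT. The GABAergic neuron markers summed to 852 to 962 CPM in Dp16_2xIFNRs, 783 to 996 CPM in Dp16 and 840 to 971 CPM in WT.

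Of 24 upstream regulators, the kinases, coactivators and DNA-binding factors through which activity reaches the members, 0 were called in either contrast with WT by edgeR, and 3 had an unadjusted p below 0.05 in each. Their median was -0.06 in both, and 11.5% and 8.84% of all tested genes had an unadjusted p below 0.05. Only 1.05% and 0.748% of all tested genes were called, so 0 calls is the common case for such a list. Crtc1, the coactivator of CREB, was at 249 ± 17.5 CPM in Dp16_2xIFNRs and 278 ± 22.4 CPM in WT (log2 fold change -0.16, SE 0.0565, adjusted p = 0.244). Elk1, a partner of serum response factor, was at 58.5 ± 3.83 CPM in Dp16_2xIFNRs and 65.1 ± 4.5 CPM in WT (-0.15, SE 0.0492, adjusted p = 0.172). The acetyltransferase gene Ep300 was at 77.1 ± 6.98 CPM in Dp16 and 86.7 ± 5.32 CPM in WT (-0.17, SE 0.0768, adjusted p = 0.524). The SE of these regulators was several times smaller than that of the members.

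Genes known to follow time of day, stress hormone or heat shock were set beside the members. Of 16 clock genes 0 were called in either contrast with WT (2 and 3 at an unadjusted p below 0.05 by edgeR). In the same contrasts 11.5% and 8.84% of all tested genes had such a p, and 1.05% and 0.748% were called. For this list and the shorter ones below, 0 calls is thus the common case. Nr1d1, a clock repressor, was at 132 ± 24.8 CPM in Dp16_2xIFNRs, 129 ± 17.6 CPM in Dp16 and 168 ± 32.8 CPM in WT, with adjusted p-values against WT of 0.301 and 0.325. Of 13 glucocorticoid-responsive genes 0 were called (2 and 4 at an unadjusted p below 0.05). In Dp16 vs WT 13 of 13 were above 0 with a median of 0.21, where 49.3% of all tested genes were above 0. In Dp16_2xIFNRs vs WT 7 of 13 were above 0 with a median of 0.00 (50.2% of all tested genes). In females vs males 13 of 13 were above 0 (51.6% of all tested genes). Of 8 heat shock genes 0 were called (0 and 0 at an unadjusted p below 0.05), as were 0 of 7 tested AP-1 partners (2 and 1). DESeq2 and limma-voom likewise called 0 genes of these lists, of the upstream regulators and of the other rapid response genes.

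Over 40 relations of Fos and Npas4 with library measures, which were chosen after values were seen, only that of Fos with the mean of the other rapid response genes passed on r (r = 0.705, permutation p = 0.00078, adjusted p = 0.0312). Its rho was 0.618 (permutation p = 0.00778, adjusted p = 0.156), and r was 0.629 without the 2 farthest libraries. Fos had r = 0.567 with endothelial markers (permutation p = 0.0135, adjusted p = 0.149) with rho = 0.624 (permutation p = 0.00696, adjusted p = 0.156), and r = 0.542 without the 2 farthest libraries. With excitatory neuron markers r was 0.507 (permutation p = 0.0314, adjusted p = 0.237) and rho 0.455 (permutation p = 0.0594, adjusted p = 0.339), and r was 0.377 without the 2 farthest. With choroid plexus markers r was -0.333 and rho -0.119 (permutation p = 0.178 and 0.636, adjusted p = 0.604 and 0.848), and with striatum markers r was -0.226 and rho -0.356 (permutation p = 0.364 and 0.146, adjusted p = 0.646 and 0.584). Without the 2 farthest libraries these values of r were -0.338 and -0.0164. The largest for Npas4 was with the clock genes (r = -0.643, permutation p = 0.00415, adjusted p = 0.083) with rho = -0.569 (permutation p = 0.0155, adjusted p = 0.206). Without the 2 libraries farthest from the Npas4 median, that r was -0.459. Collection time is not labelled, so its part in the spread was not tested.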

How the data were processed

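TRIzol-extracted, polyA-selected RNA was made into strand-specific libraries and sequenced as paired 150 base reads, per the labels' protocols. FastQC 0.11.5, HISAT2 2.1.0, SAMtools 1.5, HTSeq 0.6.1 and the genome build GRCm38 are named in the submitters' processing notes. The authors deposited raw counts per gene and, separately, RPKM values, for the genes of GENCODE M24, as the deposited tables are named. In all 31735 genes detected in 2 or more libraries, RPKM equalled count over library total over 1 length (relative tolerance 1e-06). Positions and overlaps come from GENCODE M21.

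Counts were filtered by group (filterByExpr, minimum count 10), scaled by TMM and fitted over 18 libraries with genotype and sex in edgeR 4.0.16 (R 4.3.3, 14 residual degrees of freedom). Calls used a Benjamini-Hochberg adjusted p below 0.05 over 18717 genes, and the SE is the log2 fold change over the root of F. Correlations over 18 libraries used log2 CPM (prior count 2) less genotype and sex means, with NumPy 2.4.6. Their permutations shuffled 18 residuals where 14 residual degrees of freedom remained, so these permutation p-values may be too small. Correlations within a genotype used log2 CPM without removal of sex means. Alternatives used limma 3.58.1, DESeq2 1.42.0, other filters, covariates and blocks, deposited RPKM with pseudocounts of 0.1 and 1, and each library left out. Those for genes outside the set and for the median and signs of the set, and correlations within a genotype, were chosen after seeing the data. Totals ran from 46346019 to 67281449 counts, a depth at which the spread between animals and not counting limits the members. Members and lists were chosen with earlier results of these data known. Named were all 10 members, called genes and some of the largest values in each list, and the 10 genes most like the members.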

Additional observations from a re-analysis of the deposited data

Results flagged for a closer look

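Each of the 10 genes was examined for a library standing apart in each genotype of 6 libraries, 30 groups in all, and 1 was found. Fosb was at 14.9 CPM in WT replicate 1, where the other 5 WT libraries were at 32 to 42 CPM. The gap to the nearest library took up 0.631 of the whole range, just past the critical value of 0.625 for 6 samples. Chance alone flags about 1 in 20 such groups. Without this library Fosb had a log2 fold change of -0.11 in Dp16_2xIFNRs vs WT and of -0.11 in Dp16 vs WT.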

How the results depend on the processing

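The count of members called was 0 of 10 in every contrast under all alternatives run, whose lowest adjusted p was 0.498, and leaving out each library gave 0 to 0. Of 360 member fold changes under 12 alternatives 17 changed sign, and of 540 with 1 library left out 36 did, none beyond 0.21 in size, with no call on either side. Signs were compared on rounded values, so a change to a value that rounds to 0 was not counted. In Dp16_2xIFNRs vs WT the changed values were Npas4 -0.02 with age, Fos 0.01 and Dusp1 0.02 with a block for the identifier number, Dusp1 0.03 and 0.03 on RPKM with pseudocounts of 0.1 and 1, and Nr4a1 -0.07 and Ier2 -0.02 with limma-voom weights. Fosb in Dp16_2xIFNRs vs Dp16 was -0.04 with the identifier block and -0.03 and -0.02 on RPKM. Srf in Dp16 vs WT was 0.01 with the identifier block. Without WT replicate 6 and Dp16 replicate 3 together, Npas4 was -0.05, Nr4a1 -0.04 and Ier2 -0.11 in Dp16_2xIFNRs vs WT, Egr1 0.02 in Dp16 vs WT, and Fosb -0.03 and Dusp1 -0.02 in Dp16_2xIFNRs vs Dp16. The cause was not tested. With 1 library left out, the ranges in Dp16_2xIFNRs vs WT were -0.19 to 0.20 for Fos, -0.11 to 0.20 for Fosb, -0.21 to 0.07 for Junb, -0.34 to 0.09 for Egr2, -0.25 to 0.12 for Arc, -0.12 to 0.31 for Npas4, -0.17 to 0.23 for Nr4a1, -0.09 to 0.30 for Ier2, -0.12 to 0.21 for Dusp1, -0.38 to 0.05 for Maff and -0.60 to 0.18 for Btg2. In Dp16 vs WT they were -0.11 to 0.14 for Fosb, -0.39 to 0.08 for Ier2, -0.26 to 0.10 for Dusp1 and -0.07 to 0.02 for Srf, and in Dp16_2xIFNRs vs Dp16 -0.11 to 0.16 for Fosb and -0.01 to 0.25 for Dusp1. The 8 relations with Fos numbered 7 to 8 with 1 library left out, and r of Npas4 with Fos ran from -0.125 to 0.474. Without removal of group means Fosb did not pass (r = 0.467, adjusted permutation p = 0.0568). The call of Crh ended with age in the model (adjusted p = 0.0525). Over all genes, Dp16_2xIFNRs vs WT gave 196 calls, 394 with DESeq2, 125 without WT replicate 2 and 121 without Dp16_2xIFNRs replicate 2, Dp16 vs WT 140 and 247 with DESeq2, and females vs males 12, 7 with the identifier block and 20 with DESeq2. With the replicate number as a block, Dp16_2xIFNRs vs WT gave 304 calls, 0 of 10 members were called and Fosb was -0.01 in Dp16_2xIFNRs vs Dp16. Residuals of libraries with the same replicate number correlated at -0.145 to 0.318 (median 0.108, against -0.0324 for different numbers), and 6 of 18 libraries were closest to their own number. The labels name no shared litter, batch or day and not every pair exceeded 0.1, so pairing is not established. The 7 pairs that share an identifier number had -0.0961 to 0.318 (median 0.174).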
